A study of Mus musculus with 19 samples.

Results

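Liver takes apart most of the amino acids that a meal or a fast delivers, and 9 genes encoding enzymes of that work were followed in livers of fasted and re-fed mice with or without an antisense oligonucleotide (ASO) against Plin5. The genes were picked by symbol from the count table, as 9 of the 24421 symbols it holds. The rule itself used no measured value, but the set was chosen with earlier results of these data known. All 9 genes passed the filter on low counts. They were Tat and Hpd (tyrosine), Tdo2 and Kmo (tryptophan), Sds (serine), Hal (histidine), and Gpt, Gpt2 and Got1 (alanine and aspartate).

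An ASO is a short synthetic nucleic acid that pairs with an RNA and lowers it. Plin5 encodes perilipin 5, a coat protein of lipid droplets. Every mouse was kept on a purified normal diet, received its ASO 2 times a week over 3 weeks and was fasted overnight. The groups were fasted control ASO (4 libraries, numbered 1, 3, 4 and 5), fasted PLIN5 ASO (5), re-fed control ASO (5) and re-fed PLIN5 ASO (5), and the re-fed mice had food for 4 h before the liver was taken. The sources used here give no strain, sex or age. The control mice also carried an ASO, so no group shows an untreated liver. The labels give neither the sequence of the PLIN5 ASO nor the liver cells that take it up. The labels do not say whether each library is a separate animal, so p-values measure the spread between these libraries.

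Amino acid breakdown begins in most cases by moving or removing the nitrogen, after which the carbon skeleton is burned, turned into glucose or stored. Transaminases such as Tat, Gpt, Gpt2 and Got1 pass the amino group to a keto acid, while Sds and Hal remove it as ammonia, and Tdo2, Kmo and Hpd are oxygen-using enzymes that attack the ring of an aromatic amino acid or of a product of it. Tat, Tdo2 and Sds are textbook liver genes under hormonal control, raised by glucocorticoids or glucagon and by a protein-rich diet. Fasting and feeding therefore both bear on this set, through hormones and through the supply of amino acids.

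Each library held 24.94 to 66.86 times 1e6 counts, and Plin5 was at 3.91 to 13.1 CPM (counts per 1e6, scaled with TMM factors) in all 10 PLIN5 ASO libraries against 27.3 to 51.8 in all 9 control ASO libraries. Of 6 hepatocyte markers 5 were rows of the table, and their summed level was 78515 to 140553 CPM, while kidney, muscle, pancreas and fat markers each summed to at most 0.649 CPM. Re-fed PLIN5 ASO libraries reached the highest hepatocyte sums (96051 to 140553, against 78515 to 111052 elsewhere). Most of each sum was Alb alone (53343 to 102661 CPM), and the single markers did not all follow it. In re-fed PLIN5 ASO, Ttr had its highest group mean (9720 CPM) and Apob its lowest (3712 CPM). Kupffer cell markers summed to 64.2 to 231 CPM, with the highest sums, 231 and 157, in fasted PLIN5 ASO 3 and 5. In whole liver, fewer cells of a type and less RNA per cell cannot be told apart. Libraries re-fed control ASO 3 and 5 and fasted PLIN5 ASO 3 and 5 stood apart on clock genes: Arntl, an activator of the circadian clock, was at 23.8, 45, 14.6 and 15 CPM in them and at 0.566 to 4.87 CPM in the other 15, and Dbp, a clock output gene, was at 1.82 to 18.9 CPM against 36.3 to 160. They are called Arntl-high here, results that rest on them are given with and without them, and their part in those results was not tested otherwise.

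Each gene lies on build GRCm38 as a protein-coding gene. Sds spans 120476526 to 120483932 of chromosome 5 on the plus strand, Got1 43499752 to 43524605 of chromosome 19 on the minus strand, Kmo 175620381 to 175662116 of chromosome 1 on the plus strand, Tdo2 81957090 to 81976202 of chromosome 3 on the minus strand and Hpd 123171807 to 123182727 of chromosome 5 on the minus strand. The annotated exons of 8 of the 9 genes share no exonic base with another annotated gene. The exception was Sds, of whose exonic bases 21.3% are also exonic in Plbd2, on the opposite strand, and 8.32% in Gm15690. Whether the counting used strand is not given, so reads of that stretch cannot be assigned, and Plbd2 itself was at 77.4 to 107 CPM in the 19 libraries.

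Promoter windows, from RefSeq on GRCm38.p6, ran from 250 bases before to 50 bases after the transcription start. Sds and Gpt had no match by symbol and were not searched. Windows were matched for the other 7 of the 9 genes. Those of Got1, Kmo and Tdo2 are printed, since Got1 and Kmo are genes that passed a test below and Tdo2 is the gene whose 2 re-fed groups did not overlap. They read 5′ to 3′ on the gene's own strand, and capitals mark a match to a searched motif.
Got1, chr19:43524556-43524855, minus strand: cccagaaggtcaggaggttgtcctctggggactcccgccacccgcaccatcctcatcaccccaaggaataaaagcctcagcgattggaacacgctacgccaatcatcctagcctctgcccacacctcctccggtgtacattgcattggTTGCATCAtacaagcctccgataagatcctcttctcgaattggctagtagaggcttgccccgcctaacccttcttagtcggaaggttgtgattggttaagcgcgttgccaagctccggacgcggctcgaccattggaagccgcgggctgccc
Kmo, chr1:175631943-175632242, plus strand: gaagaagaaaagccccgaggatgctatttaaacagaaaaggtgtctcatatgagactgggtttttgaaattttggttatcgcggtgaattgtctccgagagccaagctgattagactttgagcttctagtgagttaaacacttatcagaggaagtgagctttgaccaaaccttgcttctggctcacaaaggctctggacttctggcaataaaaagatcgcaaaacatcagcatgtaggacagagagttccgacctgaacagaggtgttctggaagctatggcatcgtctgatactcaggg
Tdo2, chr3:81975679-81975978, minus strand: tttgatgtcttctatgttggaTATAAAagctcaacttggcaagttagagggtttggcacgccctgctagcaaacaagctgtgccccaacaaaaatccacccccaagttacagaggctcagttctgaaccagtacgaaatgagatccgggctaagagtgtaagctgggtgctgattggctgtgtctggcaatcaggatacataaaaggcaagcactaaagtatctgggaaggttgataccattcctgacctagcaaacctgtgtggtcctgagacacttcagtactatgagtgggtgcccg

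A set of 6 short motifs were searched on both strands, none overlapping another in these windows, and the share of all 32851 RefSeq windows of this length that hold each is given beside it. The amino acid response motif TGATGCAA, bound by ATF4 with its partners, is in 0.895% of windows and was found in Got1 only, where it is read on the reverse strand and so appears as the capitals TTGCATCA, its first base at -102. TATAAA is in 13.6% of windows and was found in Tdo2 at -229 and, on the reverse strand, in Hal at -28. The cyclic AMP motif TGACGTCA (1.79% of windows), the forkhead motif GTAAACA (3.65%), the E-box CACGTG (7.15%) and the D-box TTATGTAA (0.938%) were in none of the 7 windows. Got1 and Gpt2 held 18 and 19 CpG pairs, against 4 to 7 in the other 5 windows and a median of 7 over all windows. The printed Kmo and Tdo2 windows follow the RefSeq start, which for both genes lies inside the longer gene model given above.

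Levels between genes were compared on deposited FPKM, which is per length. Hpd, which opens the route from the keto acid of tyrosine to homogentisate, had the highest group means, 2018 to 2399 FPKM. Tat, which makes that keto acid, came next at 747 to 1051 with Tdo2, the entry enzyme of tryptophan breakdown, at 742 to 916. The other 6 were lower: Gpt at 180 to 214, Sds at 115 to 272, Kmo at 138 to 160, Gpt2 at 126 to 161, Got1 at 86.4 to 175 and Hal at 88.8 to 103. In each group Hpd lay above Tat and Tdo2 in every library, and these 2 overlapped each other but not the lower 6. Among the lower 6, neighbours in the order of means overlapped except Gpt over Kmo in fasted control ASO and Kmo over Hal in re-fed PLIN5 ASO. Together the 9 genes took 0.627% to 0.842% of the summed FPKM of a library.

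**Figure D1:**
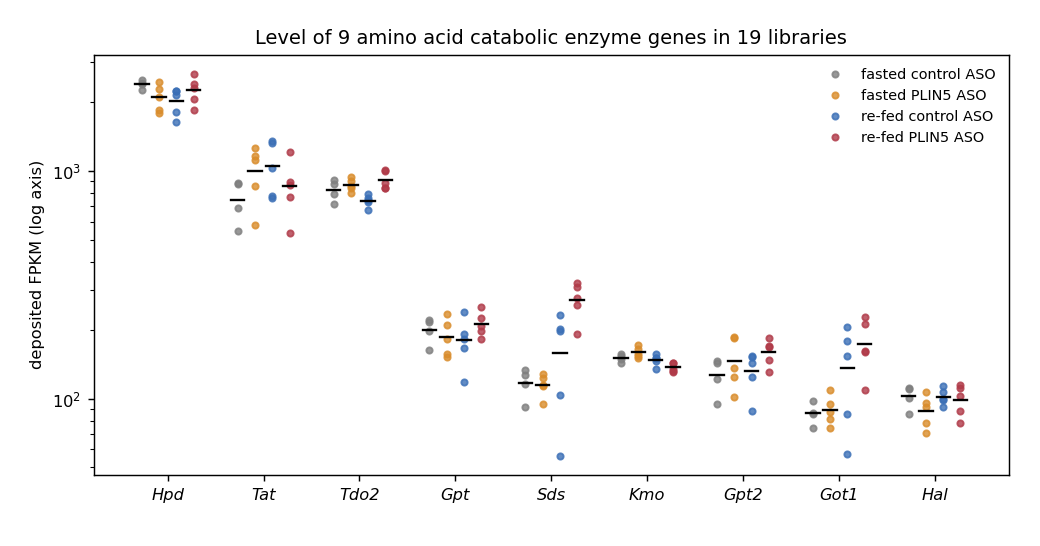
Deposited FPKM (log axis) of each of the 9 genes, by gene and group; each point is a library and each black bar a group mean. Hpd lies highest, at group means of 2018 to 2399 FPKM, and under PLIN5 ASO Sds lies higher in every re-fed library (192 FPKM or more) than in any fasted one (128 or less).

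The first comparison asked what the PLIN5 ASO did in fasted liver. None of the 9 genes passed the test (edgeR quasi-likelihood F test, Benjamini-Hochberg adjusted p under 0.05 over 13293 genes), where 1.17% of all genes did, and none had an unadjusted p under 0.05. At least 1987 of the 13293 genes had an unadjusted p under 0.05. DESeq2 and limma on FPKM called none of the 9 either, against 437 of 13293 and 150 of 10882 genes. No gene's groups were free of overlap, against 7.13% of all genes. The median log2 fold change of the 9 was 0.06, and that of all genes 0.01.

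Hal, which removes ammonia from histidine, had the smallest p. It read 300, 336, 334 and 257 CPM in fasted control ASO 1, 3, 4 and 5 and 237, 279, 300, 208 and 281 CPM in fasted PLIN5 ASO 1 to 5. The PLIN5 ASO libraries sat lower on average, but 3 of 5 lay within the control range. Its log2 fold change was -0.23 (SE 0.12, adjusted p = 0.375). Tat had the largest fitted difference, 0.39 (SE 0.24, adjusted p = 0.478), and 3 of 5 PLIN5 ASO libraries were above all controls; without the Arntl-high libraries it was 0.20 (adjusted p = 0.797). Sds and Got1 hardly differed between the ASOs in the fasted state, with log2 fold changes of 0.07 (95% interval -0.43 to 0.57) and 0.04 (95% interval -0.52 to 0.60).

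In re-fed liver, the same question was asked of the PLIN5 ASO. Again 0 of the 9 genes passed edgeR's test, where 1.38% of all genes did, and 2 genes, Tdo2 and Sds, had an unadjusted p under 0.05. DESeq2 called both, Tdo2 at an adjusted p of 0.0107 and Sds at 0.0327, and limma on FPKM called Tdo2 (adjusted p = 0.0479). Over all genes, DESeq2 called 612 of 13293 and limma on FPKM 244 of 10882. At least 2095 of the 13293 genes had an unadjusted p under 0.05 in edgeR's test. The median log2 fold change of the 9 was 0.28, beside -0.01 for all genes, and 6 of the 9 values were positive. Without the Arntl-high libraries that median was 0.07, with 6 values positive. Tdo2 was the 1 gene whose groups did not overlap; 4.22% of all genes had groups that did not.

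Tdo2 makes N-formylkynurenine from tryptophan. It read 1311, 1238, 1245, 1241 and 1117 CPM in re-fed control ASO 1 to 5 and 1689, 1417, 1400, 1492 and 1688 CPM in re-fed PLIN5 ASO 1 to 5. Every PLIN5 ASO library was above every control library, and the means were 1230 ± 70.6 and 1537 ± 142 CPM (SD, n = 5 each), a ratio of 1.25. The log2 fold change was 0.32 (SE 0.09, adjusted p = 0.0650), and without the Arntl-high libraries 0.28 (adjusted p = 0.194). Over all alternatives the adjusted p lay between 0.0107 and 0.194, and it passed in 3 of 21.

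Sds, serine dehydratase, turns serine into pyruvate and ammonia. In re-fed control ASO 1 to 5 it read 266, 237, 145, 246 and 79.6 CPM, and in re-fed PLIN5 ASO 1 to 5 it read 323, 365, 368, 246 and 312 CPM. The 2 low control values, 145 and 79.6, are the Arntl-high libraries 3 and 5, and 4 of 5 PLIN5 ASO libraries lay above all controls. Its log2 fold change was 0.73 (SE 0.23, adjusted p = 0.0992). Without the Arntl-high libraries the controls averaged 250 ± 14.7 CPM (n = 3), the log2 fold change was 0.37 and the adjusted p 0.217.

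The remaining 7 genes had adjusted p of 0.353 or more. Gpt and Gpt2, the cytosolic and mitochondrial alanine transaminases, had positive log2 fold changes of 0.28 (SE 0.16) and 0.30 (SE 0.18). These became 0.11 and 0.13 without the Arntl-high libraries. Got1 went from 0.38 (SE 0.25) to -0.02 and Tat from -0.28 (SE 0.23) to 0.02, so neither kept its direction once those libraries were left out.

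**Figure D2:**
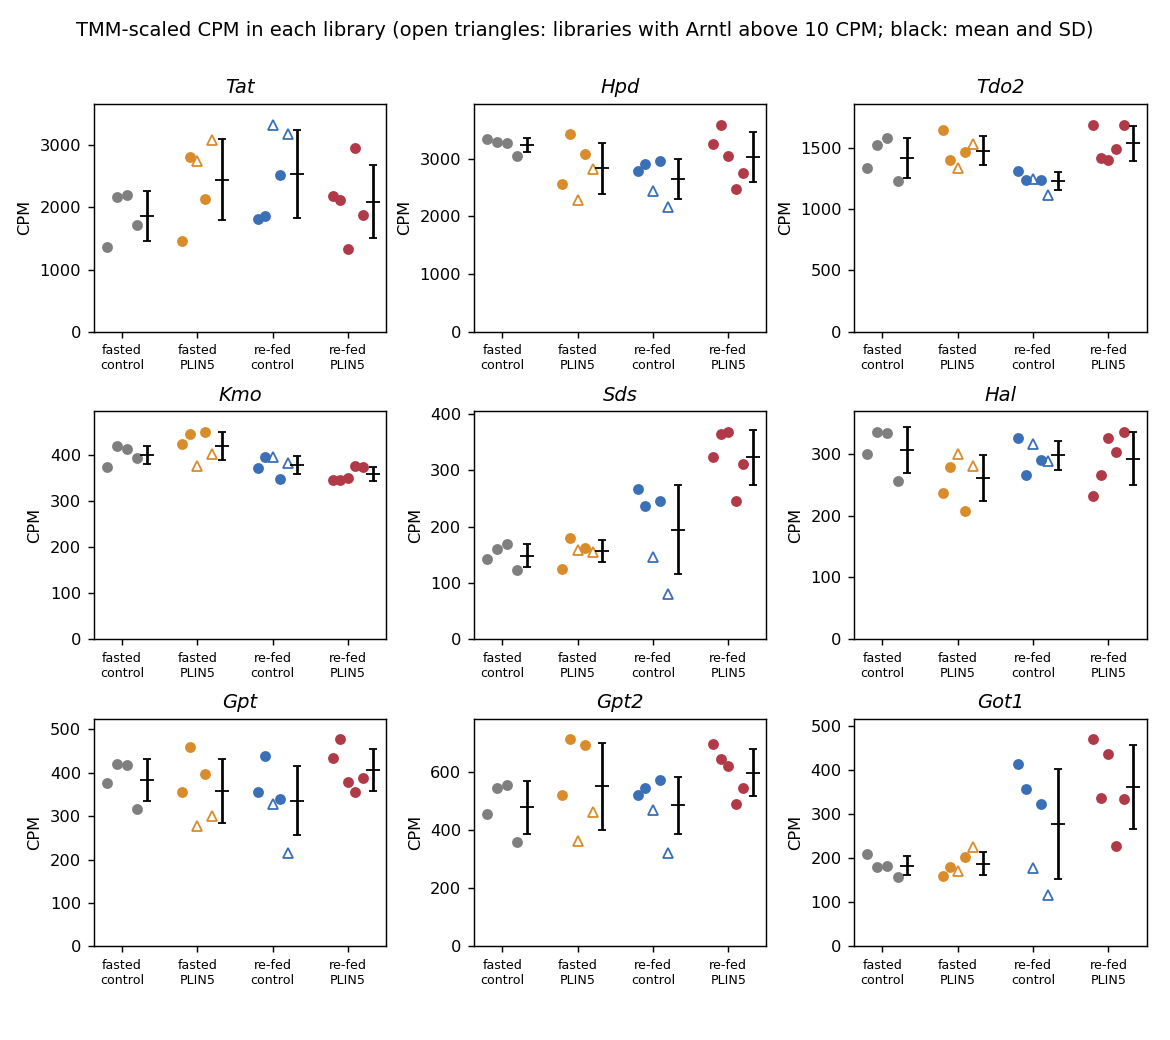
TMM-scaled CPM of each gene in the 19 libraries, by group; points are libraries, open triangles are the 4 with Arntl above 10 CPM, and black marks are the group mean and SD. Sds and Got1 are higher in all 5 re-fed PLIN5 ASO libraries than in any fasted PLIN5 ASO library, and the 2 open triangles of re-fed control ASO are the lowest re-fed control values of both genes.

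Re-feeding was examined within each ASO. Under control ASO, 0 of the 9 genes passed the test, in a comparison where 13.2% of all genes did. An unadjusted p under 0.05 was found for 3: Hpd and Tdo2, both lower in re-fed liver, and Got1, higher. Such a p was common, as at least 3493 of the 13293 genes had one. DESeq2 and limma on FPKM called none of the 9, against 2229 of 13293 and 1809 of 10882 genes. Groups did not overlap for 1 of the 9, Hpd, against 16.3% of all genes. The median log2 fold change of the 9 was -0.04, and that of all genes 0.03.

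Hpd is 4-hydroxyphenylpyruvate dioxygenase. It read 3333, 3288, 3275 and 3051 CPM in fasted control ASO 1, 3, 4 and 5, and 2777, 2900, 2438, 2954 and 2152 CPM in re-fed control ASO 1 to 5. All re-fed libraries lay below all fasted ones, with the Arntl-high libraries lowest at 2438 and 2152. The log2 fold change was -0.29 (SE 0.12, adjusted p = 0.125), and -0.17 (adjusted p = 0.415) without the Arntl-high libraries. Tdo2 read 1332, 1520, 1582 and 1232 CPM in the fasted libraries, so the re-fed control values given above, 1117 to 1311, overlapped them; its log2 fold change was -0.20 (SE 0.09, adjusted p = 0.144).

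For Sds and Got1 the result under control ASO turned on the Arntl-high libraries. Sds read 143, 160, 169 and 122 CPM in fasted control ASO, so re-fed libraries 1, 2 and 4 (266, 237 and 246) were above that range while 3 (145) lay in it and 5 (79.6) below it. The log2 fold change was 0.39 (SE 0.24, adjusted p = 0.300) with all libraries, and 0.75 (adjusted p = 0.00536) without the Arntl-high ones. Got1, the cytosolic aspartate transaminase, which also serves the malate-aspartate shuttle, read 210, 180, 183 and 157 CPM in fasted and 413, 357, 177, 323 and 117 CPM in re-fed control ASO. Its log2 fold change was 0.60 (SE 0.27, adjusted p = 0.148) with all libraries, and 0.996 (adjusted p = 0.00392) without the Arntl-high ones. Leaving out re-fed control ASO 5 alone also brought both past the threshold, at adjusted p of 0.0322 for Sds and 0.0281 for Got1.

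Those 2 re-fed libraries differed from their group in other members too. Hpd, Gpt, Gpt2, Sds and Got1 had their 2 lowest re-fed control values there, and Tat, tyrosine transaminase, its 2 highest, at 3332 and 3182 CPM against 1809, 1866 and 2517. Hal, Kmo and Tdo2 had neither their 2 lowest nor their 2 highest re-fed control values there. The Arntl-high libraries of fasted PLIN5 ASO showed the low values for Gpt (278 and 300 CPM, against 356 to 460) and Gpt2 (364 and 464, against 521 to 713), but not for Sds or Got1.

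Under PLIN5 ASO, re-feeding raised Sds and Got1 and lowered Kmo, so 3 of the 9 genes passed the test, where 8.64% of all genes did. DESeq2 also called 2 up and 1 down, where it called 1511 of all 13293 genes. Groups did not overlap for 2 of the 9, Sds and Got1, against 7.57% of all genes. The median log2 fold change of the 9 was 0.12, beside 0.00 for all genes, and without the Arntl-high libraries it was 0.01, beside 0.02.

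Sds rose most. It read 125, 179, 159, 161 and 155 CPM in fasted PLIN5 ASO 1 to 5, and every re-fed PLIN5 ASO library, at 246 to 368, was higher. The means were 156 ± 19.7 and 323 ± 49.8 CPM (SD, n = 5 each), a ratio of 2.07. The log2 fold change was 1.05 (SE 0.23, adjusted p = 0.00681), and 1.06 without the Arntl-high libraries. It passed in all 21 alternatives run, with adjusted p up to 0.0211. The overlapping gene Plbd2 had -0.15 on the log2 scale (adjusted p = 0.232) here, and of -0.30 (adjusted p = 0.0155) under control ASO.

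Got1 read 159, 181, 171, 202 and 225 CPM in fasted and 469, 336, 435, 228 and 334 CPM in re-fed PLIN5 ASO 1 to 5. The lowest re-fed library, 228, was just above the highest fasted one, 225. Means were 188 ± 26.1 and 360 ± 95.3 CPM (SD, n = 5 each), a ratio of 1.92, and the log2 fold change was 0.94 (SE 0.26, adjusted p = 0.0269). The call was lost when re-fed library 1 or 3 or fasted library 1, 2 or 3 was left out, with adjusted p up to 0.0709 and log2 fold changes of 0.83 to 1.07 over the 10 omissions. It passed in 15 of 21 alternatives in all, and was also lost with limma on log2(FPKM + 1) with no filter (adjusted p = 0.0643). Without the Arntl-high libraries it was 0.996 (adjusted p = 0.00361).

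Kmo, kynurenine 3-monooxygenase of the mitochondrial outer membrane, fell by a small amount. It read 425, 445, 377, 450 and 402 CPM in fasted PLIN5 ASO and 346, 346, 350, 377 and 375 CPM in re-fed PLIN5 ASO. Of the re-fed libraries 4 of 5 lay below all fasted ones, the lowest of which, 377, is an Arntl-high library, and the ratio of means was 0.856. The log2 fold change was -0.23 (SE 0.06, adjusted p = 0.0346). It passed in 11 of 21 alternatives, and in 3 of 10 with a library left out. It was lost without re-fed library 1, 2 or 3 or fasted library 1, 2, 4 or 5, at adjusted p of 0.0504 to 0.0813, and was kept without the Arntl-high libraries (-0.29, adjusted p = 0.0159).

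The other 6 genes had adjusted p of 0.398 or more in this comparison. Hal had a log2 fold change of 0.17 (SE 0.11), Gpt of 0.18 (SE 0.16), Gpt2 of 0.12 (SE 0.18), Hpd of 0.09 (SE 0.12), Tdo2 of 0.06 (SE 0.09) and Tat of -0.22 (SE 0.23).

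**Figure D3:**
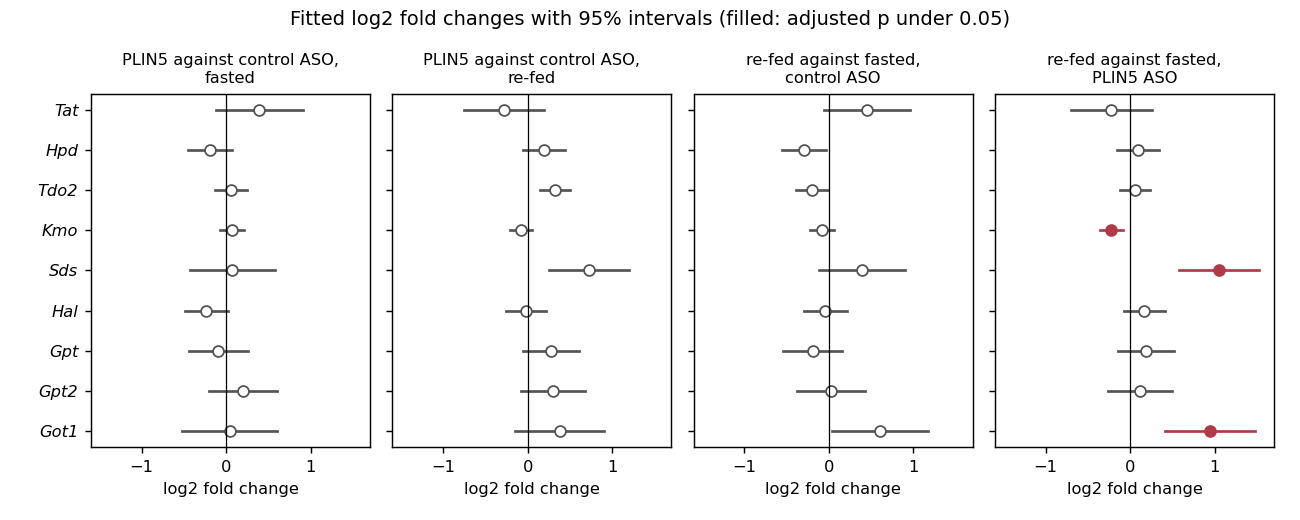
Fitted log2 fold changes with 95% intervals for the 9 genes in the 4 comparisons, 1 panel each; filled red points have an adjusted p under 0.05. Filled points appear only for Sds, Got1 and Kmo, in re-fed against fasted liver under PLIN5 ASO.

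Whether re-feeding acted differently under the 2 ASOs was tested as the difference of the ASO effect between feeding states. None of the 9 genes passed (0.0226% of all genes, or 3, did). Hpd and Tdo2 had an unadjusted p under 0.05, among at least 1971 of the 13293 genes. Neither DESeq2 nor limma on FPKM called any of the 9, against 96 of 13293 and 0 of 10882 genes. Sds differed by 0.66 (SE 0.33, adjusted p = 0.347) and Got1 by 0.34 (SE 0.37, adjusted p = 0.691), and without the Arntl-high libraries these were 0.31 and 0.00. Hpd differed by 0.39 (SE 0.17, adjusted p = 0.301), Tdo2 by 0.26 (SE 0.12, adjusted p = 0.331) and Tat by -0.67 (SE 0.33, adjusted p = 0.347), and without the Arntl-high libraries by 0.17, 0.20 and -0.18. Sds, Got1 and Kmo passed under PLIN5 ASO and not under control ASO, but the difference itself was not shown for any of them (Kmo -0.15, SE 0.09, adjusted p = 0.468).

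Of 55 other enzymes of amino acid breakdown 54 were tested. None passed in either ASO comparison. An unadjusted p under 0.05 was found for 6 in fasted and 7 in re-fed liver, against at least 1987 and 2095 of all 13293 genes. DESeq2 called 0 and 3 of the 54, against 437 and 612 of all genes, and limma on FPKM 0 and 0. Under control ASO, re-feeding raised 3 and lowered 3, and under PLIN5 ASO it raised 5 and lowered none, shares close to the 13.2% and 8.64% of all genes. The median log2 fold change of the list was -0.07 and 0.03, beside 0.03 and 0.00 for all genes. With the Arntl-high libraries left out the counts were 3 up and 3 down, and 9 up and 1 down. Over all genes 1167 and 1048 of 13286 were then called, so the share of the list under PLIN5 ASO was above that of all genes in that setting.

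The list holds 4 other enzymes of the tryptophan route, of which re-feeding raised 3 with control ASO and 2 with PLIN5 ASO. Of all genes, 13.2% and 8.64% were called in either direction, and the route was not tested as a set. Acmsd, which diverts the pathway away from NAD synthesis, went from 4.59 ± 1.02 (n = 4) to 23.8 ± 6.16 CPM (n = 5) under control ASO, or 2.37 on the log2 scale (SE 0.26, adjusted p = 2.36e-05), and from 5.44 ± 1.75 to 16.3 ± 4.44 CPM under PLIN5 ASO, 1.58 (SE 0.24, adjusted p = 0.000351). Its fasted and re-fed groups did not overlap under either ASO. Haao, the enzyme next after the kynureninase step, rose under both, by 0.31 (adjusted p = 0.0381) and 0.56 (adjusted p = 0.000656), the first holding in 1 of 9 omissions of a library. Kynu, kynureninase, rose under control ASO by 0.56 (adjusted p = 0.0348; 3 of 9 omissions) but had 0.37 (adjusted p = 0.0901) without the Arntl-high libraries, and had 0.32 (adjusted p = 0.226) under PLIN5 ASO. Kynu, and Haao under control ASO, lie outside the rule for named genes and were chosen after their values were seen.

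Enzymes of the other routes that passed were few. Under control ASO, Oat, ornithine aminotransferase of the pericentral liver, fell from 1279 ± 201 to 646 ± 212 CPM (log2 fold change -0.99, adjusted p = 0.00938). Bckdha, a subunit of the branched-chain keto acid dehydrogenase, and Auh, an enzyme of leucine breakdown, fell by 0.32 (adjusted p = 0.0144) and 0.33 (adjusted p = 0.0188), and without the Arntl-high libraries Bckdha had -0.25 and did not pass (adjusted p = 0.0706). Oat is also among the 7 pericentral markers. Their summed level fasted was 18588 to 20843 CPM with control and 13444 to 19210 with PLIN5 ASO. Re-fed, the sum was 7208 to 12425 with control and 10545 to 15645 with PLIN5 ASO. Most of that sum is Cyp2e1 alone (5214 to 17536 CPM over the 19 libraries). With re-feeding 2 of the 7 markers, Oat among them, fell under control ASO and 0 under PLIN5 ASO. Of all genes, 13.2% and 8.64% were called, in either direction. The part of the other markers in the values of Oat was not tested. Under PLIN5 ASO, Gls2, liver glutaminase, rose by 0.64 (adjusted p = 0.00252). Gls2 is also among the 5 periportal markers, of which 1, Gls2 itself, rose and 1 fell in this comparison (8.64% of all genes were called). The part of the other periportal markers in the values of Gls2 was not tested. Hgd, which stands after Hpd on the tyrosine route, rose by 0.27 (adjusted p = 0.0139) and was outside the rule too.

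**Figure D4:**
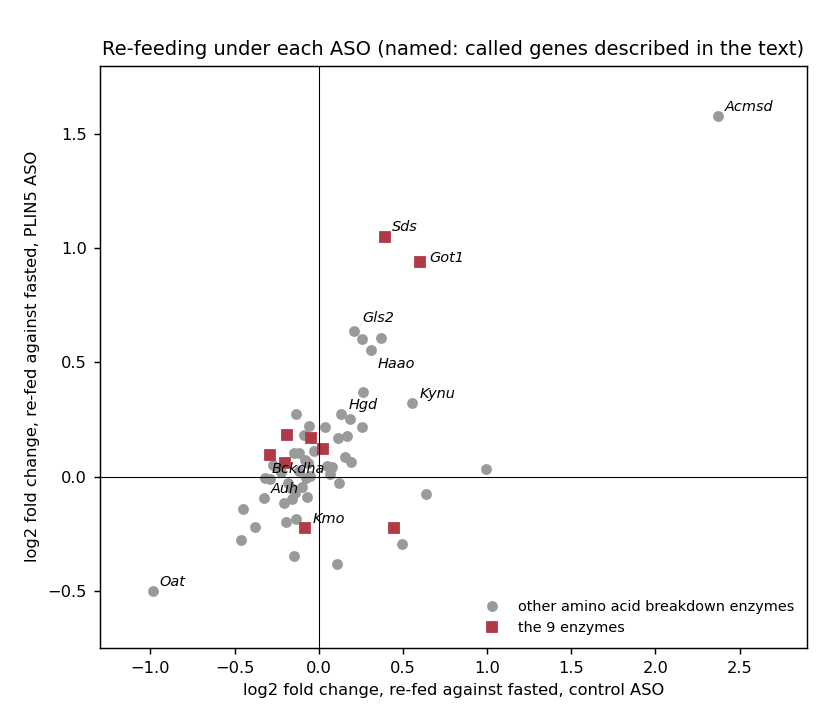
Log2 fold change of re-fed against fasted liver under control ASO (x axis) and PLIN5 ASO (y axis) for the 9 genes (red squares) and 54 other amino acid breakdown enzymes (grey circles); the called genes that the text describes are named. Acmsd lies far to the upper right at 2.37 and 1.58, and Sds and Got1 are the highest squares at 1.05 and 0.94 on the y axis.

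Of 25 regulators and feeding marks 6 rose with re-feeding under control ASO (13.2% of all genes were called), and 5 rose and 5 fell under PLIN5 ASO (8.64%). Fasn, fatty acid synthase, rose by 3.66 and 3.56 on the log2 scale (adjusted p = 5.72e-07 and 8.50e-08). Pnpla3 rose by 4.30 under control ASO (adjusted p = 0.000312) and by 4.01 under PLIN5 ASO (adjusted p = 0.000656). Srebf1, which drives lipid synthesis genes, rose by 1.66 under control ASO (adjusted p = 0.0019) and by 2.45 under PLIN5 ASO (adjusted p = 5.15e-05). Genes known to be high in fasting did not move one way. G6pc, glucose-6-phosphatase, rose by 1.21 under control ASO (adjusted p = 0.00762) and had 0.34 (adjusted p = 0.446) under PLIN5 ASO. Pck1, of gluconeogenesis, and Igfbp1 fell by 0.72 (adjusted p = 0.0390) and 1.92 (adjusted p = 0.0202) under PLIN5 ASO, and had -0.25 (adjusted p = 0.494) and 0.38 (adjusted p = 0.670) under control ASO; Pck1 under PLIN5 ASO did not pass without the Arntl-high libraries (-0.65, adjusted p = 0.138). These 3 genes, Pnpla3 under PLIN5 ASO and Srebf1 under control ASO lie outside the rule and were named after their values were seen. None of the 25 passed edgeR's test in an ASO comparison. An unadjusted p under 0.05 was found for 9 in fasted and 6 in re-fed liver, against at least 1987 and 2095 of all 13293 genes. DESeq2 called 1 and 2 of the 25, against 437 and 612 of all genes, and limma on FPKM none. Of 10 amino acid carriers only Slc3a2, the heavy chain of several exchangers, passed: it fell by 0.35 with the PLIN5 ASO in fasted liver (adjusted p = 0.0275; 2 of 9 omissions) and rose by 0.27 with re-feeding under PLIN5 ASO (adjusted p = 0.0235; 6 of 10 omissions). Of all genes, 1.17% and 8.64% passed in these comparisons. Without the Arntl-high libraries neither change of Slc3a2 passed, at -0.29 (adjusted p = 0.129) and 0.21 (adjusted p = 0.133).

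Some of the 9 genes also varied together among the libraries of a group. Over 19 libraries, with group means taken off log2 CPM, the 36 pairs of the 9 genes had Pearson's r from -0.520 to 0.903. Gpt and Gpt2 had the highest (0.903, and 0.772 over the 15 libraries that are not Arntl-high), then Sds and Got1 (0.890; Spearman's rho 0.772; 0.645 over 15), Hpd with Gpt2 (0.855) and Hpd with Gpt (0.822). Tat and Got1 had the lowest (-0.520, and -0.444 over 15). Over the 15 libraries the highest pairs were others, Sds with Gpt2 (0.851, and 0.675 over 19) and Hpd with Sds (0.796, and 0.704 over 19). These are descriptions over libraries that share processing and the Arntl-high split.

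**Figure D5:**
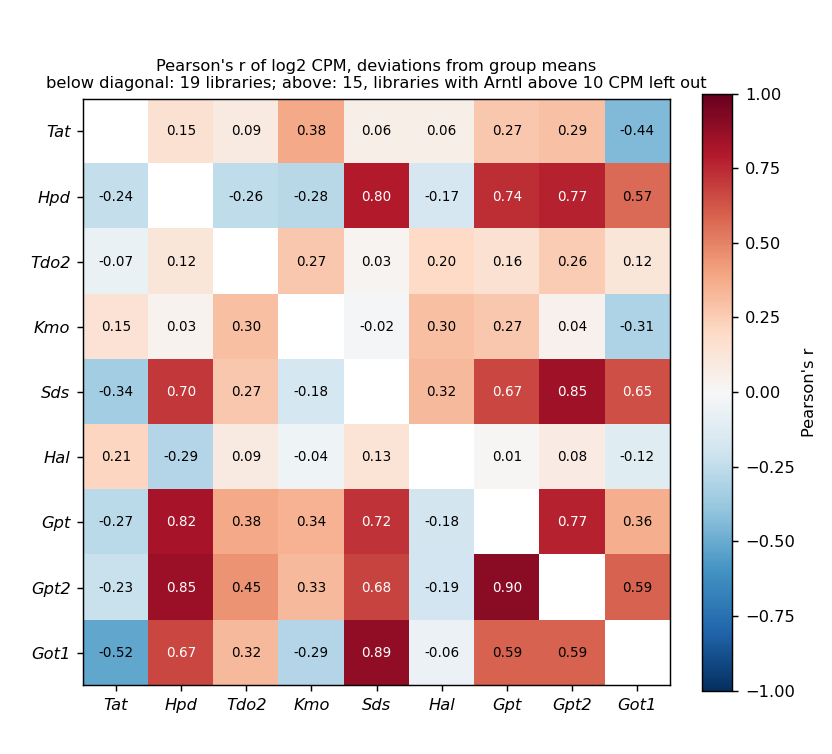
Pearson's r of log2 CPM between pairs of the 9 genes, as deviations from group means; below the diagonal over 19 libraries, above it over the 15 with Arntl at or below 10 CPM. Gpt with Gpt2 (0.903) and Sds with Got1 (0.890) stand highest below the diagonal, and Tat with Got1 lowest (-0.520).

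The genes most like each member were sought without those named Gm with digits or with a name ending in Rik. Among the other genes tested, Got1 was the one most like Sds (0.890), followed by Slc16a5 (0.883) and Chmp4c (0.874). Over the 15 libraries that are not Arntl-high, these 3 were at 0.645, 0.808 and 0.383, so the likeness of Chmp4c rested on the other 4; for the matches of the other members r over 15 libraries was 0.645 to 0.952. For Got1 they were Sulf2 (0.900), Sds and Fmo4 (0.886). Hal went with Amdhd1 (0.785), which acts 2 steps later on the histidine route, then Arhgap18 (0.734) and Zbtb25 (0.727). Tat was most like Trp53inp1 (0.868), Tnfrsf1b (0.863) and Sgk1 (0.860), and Hpd like Apoe (0.917), Cenpb (0.917) and Cisd1 (0.914). Tdo2, whose best match was the lowest of the 9, had Rpl15 (0.762), Smim7 (0.740) and Lias (0.732), and Kmo had Tmco1 (0.875), Top1 (0.858) and Akr1c20 (0.854). Gpt matched Cpsf4l (0.937), Dcxr (0.924) and Cyp3a13 (0.923), and Gpt2 matched Tex264 (0.949), Cryz (0.948) and Serpina3m (0.947).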

How the data were processed

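Liver RNA of 19 libraries was measured by RNA-seq. The authors deposited whole-number read counts and FPKM per gene symbol. Tools named in the submitters' processing notes, with no role or order, are HISAT2 2.0.2, Cuffdiff 2.2.1, Subread, edgeR and FastQC, and the builds mm10 and GRCm38. For annotation, strand setting and multi-mapping reads, the treatment was not given in the sources used here.

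Counts were fitted in R 4.3.3 with edgeR 4.0.16: TMM, filterByExpr by group (minimum count 10), all 19 libraries in 1 fit of 4 group means, and the two-sided quasi-likelihood F test, with Benjamini-Hochberg adjustment over 13293 genes at 0.05. The fit was tested on simulated data. CPM are on TMM-scaled libraries, and all 9 enzymes were at 79.6 CPM or more everywhere. Fasted control ASO 3 and 4 were the most alike pair (chi-square per degree of freedom 3.28, next pair 19.5), still above sampling noise, and were kept as 2. Positions are from the GENCODE annotation of GRCm38.

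Members, gene lists, alternatives and the rule for named genes were chosen with earlier results of these data known. The rule took all 9 members in every comparison, the 4 other enzymes and the 3 regulators or feeding marks and carriers called with the smallest p, and the 3 genes most like each member; 2 genes it names are not reported here. Alternatives were RLE size factors, no filter or a stricter one, DESeq2 1.42.0, a fit of the compared groups alone, a replicate block, limma 3.58.1 on log2 FPKM plus 1 or 0.1, each library left out, fasted control ASO 3 and 4 as 1 sample, the Arntl-high libraries (above 10 CPM) left out, and offsets for transcript length.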

Additional observations from a re-analysis of the deposited data

How the results depend on the processing

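In re-fed liver, 0 of the 9 enzymes passed for the PLIN5 ASO, against 2 with DESeq2, 1 with limma on log2(FPKM + 1) and 1 with log2(FPKM + 0.1). For re-feeding under control ASO, 0 passed, against 2 without the Arntl-high libraries and 0 to 2 with 1 library left out. For re-feeding under PLIN5 ASO, 3 passed, against 1 to 3 with 1 library left out and 2 or 3 otherwise. Of the single-gene values under the alternatives, 1001 kept their side of the threshold, 9 crossed to it, 16 crossed away from it and 0 called values changed sign; the cause was not tested. Over all genes, DESeq2 called 437, 612, 2229, 1511 and 96 genes in the 5 comparisons, against 156, 183, 1759, 1148 and 3, and a fit of only the groups compared called 4 genes for the PLIN5 ASO in re-fed liver. Leaving out 1 library gave 22 to 186 genes for the PLIN5 ASO in fasted and 45 to 341 in re-fed liver, and fasted control ASO 3 and 4 as 1 sample gave 36 in fasted liver and 1139 for re-feeding under control ASO.

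Same-numbered libraries correlated at -0.212 to 0.168. Low correlation cannot exclude a pairing by number, so the fit with a replicate block is given too. With the replicate block 1 enzyme, Hpd, passed for re-feeding under control ASO (log2 fold change -0.35, adjusted p = 0.0370), and Kmo no longer passed under PLIN5 ASO (adjusted p = 0.0512), where 2 enzymes did.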
